A study of Rattus norvegicus with 8 samples.

Results

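The genes described here make, sense and move cholesterol. They were chosen by name as a list of 28 symbols: 7 enzymes from acetyl-CoA to farnesyl diphosphate, 11 enzymes from squalene to cholesterol, 5 sterol sensors and regulators, and 5 transport and esterification genes. The array annotation holds 26 of the 28, and Hmgcs1 and Npc1 were not analysed here. Each gene was read from its brightest probe set, and all 26 passed the filter on dim signals, among 11372 genes tested. The lowest value of any of the 26 on any array was 6.42 on the log2 scale, against a filter value of 4.81.

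RNA came from thoracic aortic smooth muscle cells of male Sprague-Dawley rats, grown in M199 medium with 10% serum for 2 passages. Cells in every group received an siRNA for 48 h. It was a control with no target (siNTC) or one against Giver (siGiver), a long non-coding RNA of these cells. Treatment for 3 h was with 100 nM angiotensin II (Ang II), a peptide hormone that constricts vessels, or phosphate-buffered saline (PBS). The 4 groups, siNTC PBS, siNTC Ang II, siGiver PBS and siGiver Ang II, have 2 Affymetrix arrays each. The labels give neither the animals' age nor how many animals or siRNA sequences were used. Nothing in them tells if paired arrays stem from different cultures, and p-values thus reflect only array-to-array spread, which may be technical. The annotation lists no Giver probe set, and the knockdown was not checked here.

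Cholesterol is built from acetyl-CoA through mevalonate, the isoprenoid diphosphates and squalene, and the sterol ring is then trimmed by enzymes of the endoplasmic reticulum. The transcription factors SREBP1 and SREBP2, encoded by Srebf1 and Srebf2, drive these enzymes. The escort protein Scap carries them to the Golgi for cleavage when sterols are scarce, and the Insig proteins hold Scap back when sterols are plentiful. When sterols build up, oxysterols activate the liver X receptors, which raise the cholesterol exporter Abca1, and Soat1 stores the excess as esters. Smooth muscle cells that take up cholesterol can become foam cells of the arterial wall.

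The deposited values are log2 signals, 1 per probe set and array, comparable between arrays for a gene and not between genes. Between the 2 arrays of a group the 26 genes had a median standard deviation (SD) of 0.0294 log2, and the highest SD was 0.175, for Acat2 in siGiver PBS cells. Of the markers fixed for this report, 8 of 8 smooth muscle genes lay over the filter, and 5 of 5 annotated endothelial and 5 of 5 adipocyte genes lay below it. Of 8 macrophage genes 4 lay over it (Cd68, Aif1, Cd14 and Lyz2), and Ptprc, Adgre1, Csf1r and Mrc1 lay below. All 6 fibroblast genes lay over the filter. Their summed linear signal ran from 7094 to 7489 in siNTC PBS, 5966 to 5991 in siNTC Ang II, 7655 to 7765 in siGiver PBS and 6782 to 7176 in siGiver Ang II arrays. The summed smooth muscle signal was 25804 to 26472, 24965 to 25215, 27924 to 28207 and 28934 to 28961 in the same order. The part of these shifts in the results on cholesterol genes was not tested, and in bulk RNA fewer cells of a type and less RNA per cell cannot be told apart.

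**Figure D1:**
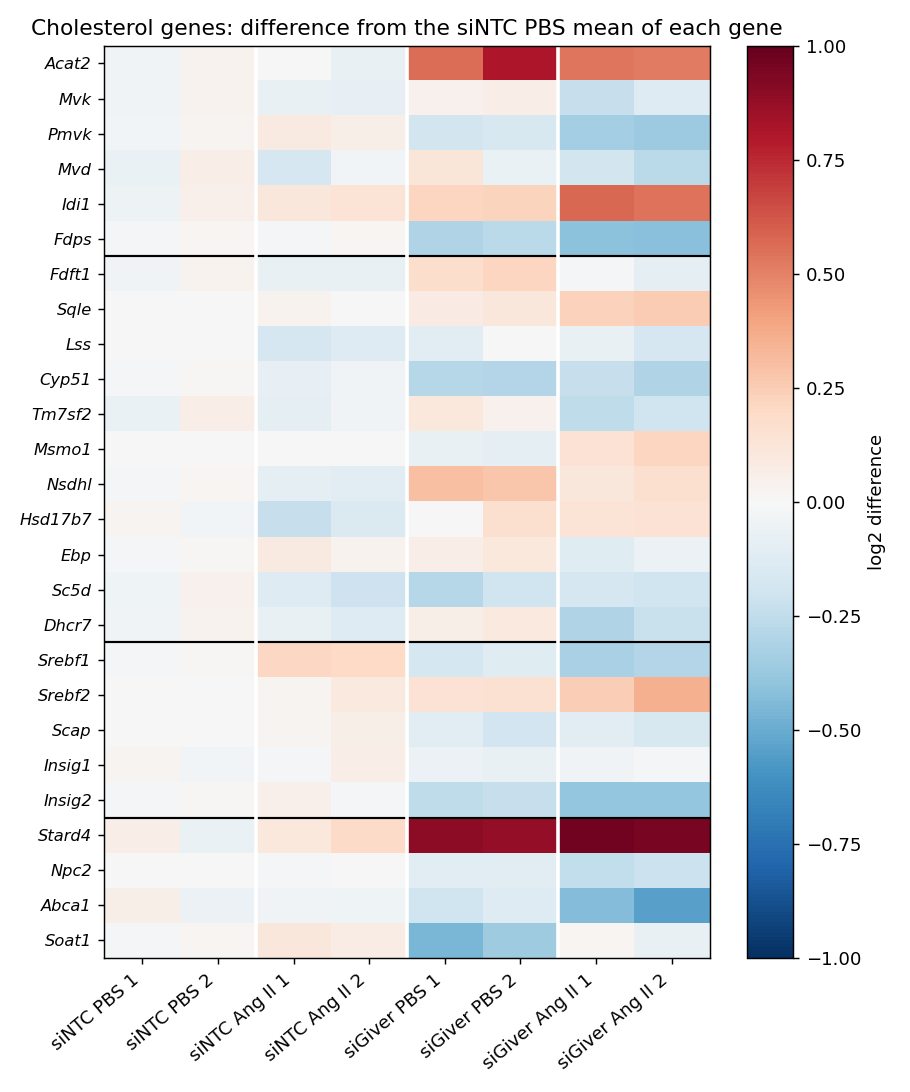
Heat map of the 26 cholesterol genes (rows, in the order of the pathway, with lines between the 4 role groups) on the 8 arrays (columns). Colour gives the log2 difference of each array from that gene's mean over the 2 siNTC PBS arrays; Acat2 and Stard4 stand high on all 4 siGiver arrays, while most siNTC Ang II cells of the map are pale.

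In control cells, 3 h of Ang II left the cholesterol genes close to their PBS levels. Of the 26, 1 passed the test, Srebf1, which rose (3.85% of them, against 6.14% of all genes tested, of which 3.97% rose and 2.17% fell). The log2 differences of the 26 ran from -0.19 to 0.20, with a median of -0.0052 against 0.0059 over all genes. Changes were tested with limma at a Benjamini-Hochberg adjusted p under 0.05, and 6 of the 26 genes (22.9% of all genes) had an unadjusted p under 0.05.

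Srebf1 encodes SREBP1, which drives fatty acid synthesis more than cholesterol synthesis. Its log2 values were 8.995 and 9.02 on the siNTC PBS arrays and 9.22 and 9.21 on the siNTC Ang II arrays. The arrays did not overlap, and Ang II raised Srebf1 by 0.20 ± 0.044 log2 (standard error, SE, 2 arrays per group), or 1.15-fold, with adjusted p = 0.0394. The call was lost when any 1 of the 8 arrays was left out, and without the filter. With the mean of probe sets it was lost too, and Nsdhl passed in its place, at -0.19.

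The remaining 25 did not pass. For Insig1 the difference was 0.02, with a 95% interval from -0.09 to 0.13, and for Insig2, it was 0.02 (-0.09 to 0.12). For Abca1 it was -0.04 (-0.18 to 0.10). The largest differences that did not pass were those of Hsd17b7, a 3-ketosteroid reductase of the late pathway, at -0.19 (-0.33 to -0.04), and Sc5d, the lathosterol desaturase, at -0.17 (-0.30 to -0.04). These are values of the brightest probe sets. The dimmer sets stood at -0.015 for Hsd17b7 and at 0.0015 and -0.049 for Sc5d. In the same comparison 5 of 6 fibroblast markers fell, with a median of -0.38.

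In siGiver cells, Ang II changed cholesterol genes in both directions. Of the 26, 3 rose and 8 fell (42.3% of them, against 16.3% of all genes, of which 9.12% rose and 7.19% fell). An unadjusted p under 0.05 was found for 18 of them and for 32.7% of all genes. The isomerase gene Idi1, the C-4 methyl sterol oxidase gene Msmo1 and the esterifying enzyme gene Soat1 rose. Early and late enzyme genes (Mvk, Pmvk, Fdft1, Tm7sf2, Ebp and Dhcr7), Srebf1 and Abca1 fell. On the brightest probe sets no change reached 1.5-fold, and the median over the 26 was -0.13 against -0.03 over all genes. With array medians subtracted, 4 of the 26 rose and 5 fell, and of all genes 1164 rose and 561 fell. The split between rises and falls thus moved with this setting.

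Idi1 makes dimethylallyl diphosphate, the starter unit of the isoprenoid chain. Its log2 values were 11.39 and 11.40 on siGiver PBS arrays and 11.75 and 11.72 on siGiver Ang II arrays, against 11.12, 11.23, 11.29 and 11.31 on the 4 siNTC arrays. Both siGiver Ang II arrays lay above all others. The rise was 0.34 ± 0.049 (1.27-fold, adjusted p = 0.0038), and it kept its call in all 17 alternatives run.

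Msmo1 removes a methyl group from the sterol ring. It read 12.20 and 12.18 on siGiver PBS arrays, 12.42 and 12.48 on siGiver Ang II arrays, and 12.27 on each of the 4 siNTC arrays. The siGiver arrays thus lay on either side of a tight siNTC set. The rise was 0.26 ± 0.044 (adjusted p = 0.0076). Its call was lost when siGiver Ang II replicate 2 was left out.

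Soat1 joins cholesterol to a fatty acid for storage. Its values were 9.16 and 9.27 with PBS and 9.64 and 9.55 with Ang II in siGiver cells. In siNTC cells they were 9.61 and 9.64 with PBS and 9.74 and 9.70 with Ang II. The siGiver PBS arrays stood apart below all others. The rise was 0.38 ± 0.056 (1.30-fold, adjusted p = 0.0040), and the dimmer probe set of the gene rose by 0.64 ± 0.100.

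Dhcr7, the reductase of the last step to cholesterol, had the largest fall. It read 9.13 and 9.17 with PBS and 8.77 and 8.85 with Ang II in siGiver cells, and 9.04, 9.11, 8.998 and 8.95 on the siNTC PBS and Ang II arrays. The siGiver Ang II arrays were the lowest pair of the 8. The fall was -0.34 ± 0.051 (1.27-fold lower, adjusted p = 0.0044), with the call kept in all 17 alternatives.

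Abca1 pumps cholesterol out of the cell to apolipoprotein A-I. It read 8.83 and 8.896 with PBS and 8.59 and 8.49 with Ang II in siGiver cells, a fall of -0.32 ± 0.060 (adjusted p = 0.0113). The call was lost without siGiver PBS replicate 2 or siGiver Ang II replicate 2. Of its dimmer probe sets over the filter, 1 stood at -0.12 ± 0.066 and 1 at -0.28 ± 0.18, and neither passed.

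Tm7sf2, a sterol C14 reductase, fell by -0.30 ± 0.060. Fdft1, the squalene synthase, fell by -0.25 ± 0.050, and Mvk, the mevalonate kinase, by -0.24 ± 0.051. The Tm7sf2 call was lost without siGiver PBS replicate 1 or either siGiver Ang II array. The Fdft1 call was lost without either siGiver PBS array or siGiver Ang II replicate 2, and the Mvk call without either siGiver PBS array or siGiver Ang II replicate 1. The falls of Pmvk, the phosphomevalonate kinase, at -0.18 ± 0.044, of Ebp, a sterol isomerase, at -0.18 ± 0.047, and of Srebf1, at -0.16 ± 0.044 (adjusted p = 0.0494), were lost in most alternatives, among them no filter and without any 1 siGiver array. Averaged over its 2 probe sets Srebf1 stood at 0.0085, so its direction there turned.

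The count of called genes was 11 of 26 with all arrays. It fell when any single siGiver array, with PBS or Ang II, was left out, and the count over all genes fell as well. Of the 15 genes that did not pass, Mvd, the mevalonate diphosphate decarboxylase, stood at -0.25 (95% interval -0.44 to -0.06), and Sqle, the squalene epoxidase, at 0.14 (0.05 to 0.24).

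**Figure D2:**
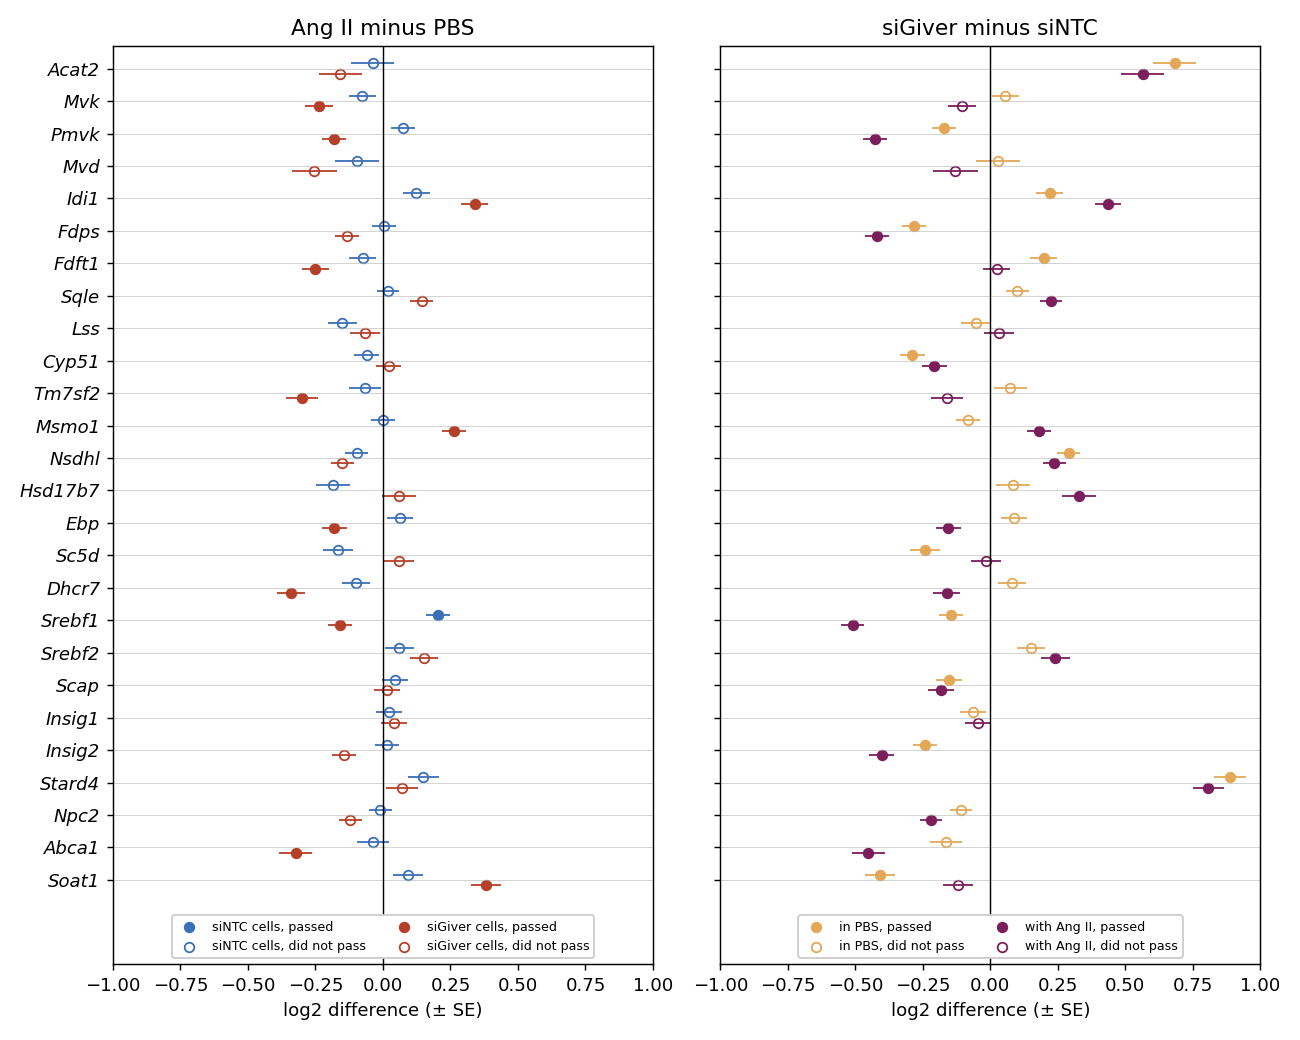
Log2 differences of the 26 genes with their SE (horizontal bars, limma, 2 arrays per group). The left panel gives Ang II minus PBS in siNTC and in siGiver cells and the right panel siGiver minus siNTC in PBS and with Ang II; filled points passed the test, and on the left 1 siNTC point is filled against 11 siGiver points.

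Promoters are shown for Idi1 and Msmo1, which rose with Ang II in siGiver cells, for Dhcr7, which had the largest fall, for Acat2, which differed most between siRNA arms among genes with a promoter entry, and for Srebf1, with both of its listed starts. The sequences are RefSeq's for build GRCr8, 250 bases before to 50 after the start, 5′ to 3′ along the gene's strand. Capitals mark matches to the CCAAT box (CCAAT, bound by NF-Y, a partner of SREBPs) and the GC box (GGGCGG, bound by Sp1), on either strand, and touching matches run together.
Idi1 (chr17:66547475-66547774, minus strand): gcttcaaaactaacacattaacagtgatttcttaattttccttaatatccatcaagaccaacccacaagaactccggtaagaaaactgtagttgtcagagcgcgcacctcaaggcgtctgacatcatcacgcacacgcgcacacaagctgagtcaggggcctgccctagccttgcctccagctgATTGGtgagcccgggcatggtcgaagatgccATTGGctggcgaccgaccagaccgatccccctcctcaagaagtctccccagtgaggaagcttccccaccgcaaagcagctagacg
Msmo1 (chr16:29746863-29747162, plus strand): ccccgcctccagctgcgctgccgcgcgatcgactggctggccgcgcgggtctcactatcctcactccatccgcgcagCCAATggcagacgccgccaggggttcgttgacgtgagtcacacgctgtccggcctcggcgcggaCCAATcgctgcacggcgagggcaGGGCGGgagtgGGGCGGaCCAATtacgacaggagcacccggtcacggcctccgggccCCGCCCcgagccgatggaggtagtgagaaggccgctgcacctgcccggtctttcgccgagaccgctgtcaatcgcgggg
Dhcr7 (chr1:208444184-208444483, plus strand): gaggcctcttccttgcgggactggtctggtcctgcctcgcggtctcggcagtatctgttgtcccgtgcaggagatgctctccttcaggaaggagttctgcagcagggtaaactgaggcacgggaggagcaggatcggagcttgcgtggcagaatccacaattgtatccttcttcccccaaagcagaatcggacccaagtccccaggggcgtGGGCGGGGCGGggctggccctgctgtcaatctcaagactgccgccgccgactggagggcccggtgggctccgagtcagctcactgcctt
Acat2 (chr1:50100590-50100889, plus strand): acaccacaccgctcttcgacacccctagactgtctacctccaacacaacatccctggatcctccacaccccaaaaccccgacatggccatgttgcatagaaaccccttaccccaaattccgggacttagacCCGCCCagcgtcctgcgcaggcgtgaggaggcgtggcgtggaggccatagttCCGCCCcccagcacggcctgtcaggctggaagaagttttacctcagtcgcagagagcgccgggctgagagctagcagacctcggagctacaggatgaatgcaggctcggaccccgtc
Srebf1, upstream start (chr10:45529115-45529414, minus strand): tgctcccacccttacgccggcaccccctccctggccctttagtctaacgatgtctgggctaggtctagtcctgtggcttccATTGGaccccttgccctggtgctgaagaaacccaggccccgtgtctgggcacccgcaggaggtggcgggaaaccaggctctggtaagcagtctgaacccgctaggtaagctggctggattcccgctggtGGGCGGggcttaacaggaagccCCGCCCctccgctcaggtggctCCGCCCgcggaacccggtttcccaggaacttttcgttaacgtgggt
Srebf1, downstream start (chr10:45518961-45519260, minus strand): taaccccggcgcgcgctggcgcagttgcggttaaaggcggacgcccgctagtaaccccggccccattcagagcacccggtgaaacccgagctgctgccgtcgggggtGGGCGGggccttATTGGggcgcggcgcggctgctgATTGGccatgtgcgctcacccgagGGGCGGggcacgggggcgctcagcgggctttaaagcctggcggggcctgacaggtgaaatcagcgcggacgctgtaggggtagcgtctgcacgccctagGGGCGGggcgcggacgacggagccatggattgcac

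Of the 26 genes, 22 have a promoter entry (Pmvk, Fdft1, Sqle and Stard4 have none). The CCAAT box was found in 17 of the 22 genes (77.3%), against 37.5% of all 33469 promoter entries and 37.4% of the 10650 entries of genes tested. The GC box was found in 19 of 22 (86.4%), against 33.1% and 60.7%. Idi1, Nsdhl and Insig2 have the CCAAT box and no GC box, while Acat2, Dhcr7, Cyp51, Scap and Abca1 have the GC box and no CCAAT box. The sterol regulatory element, searched as TCACNCCAC on both strands, was in none of the 22 windows and in 1.12% of all entries. Idi1, Msmo1 and Soat1, which rose with Ang II in siGiver cells, hold 2, 3 and 1 CCAAT boxes. Of those that fell, Dhcr7 and Abca1 hold none, Mvk, Tm7sf2 and Ebp hold 5, 2 and 2, and Srebf1 holds 1 at the upstream and 2 at the downstream start. These matches describe letters in the windows and not sites in use.

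Without Ang II, the siRNA arms differed in 13 of the 26 genes, 5 higher and 8 lower in siGiver cells (50% of them, against 35.1% of all genes, with 16% higher and 19.1% lower). An unadjusted p under 0.05 was found for 17 of them and for 45% of all genes. Stard4, which carries cholesterol between membranes, and Acat2, the acetoacetyl-CoA thiolase of the cytosol, were higher by more than 1.5-fold. Idi1, Fdft1 and Nsdhl were also higher. Lower were Pmvk, Fdps, Cyp51, Sc5d, Srebf1, Scap, Insig2 and Soat1. The median over the 26 was -0.01, against -0.0047 over all genes. With cyclic loess normalization 7 of the 26 were higher and 6 lower, and of all genes 2054 were higher and 1979 lower. With array medians subtracted, 5 of the 26 were higher and 7 lower, and of all genes 1812 were higher and 2043 lower.

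Stard4 read 6.55 and 6.42 on siNTC PBS arrays and 7.38 and 7.37 on siGiver PBS arrays. Its values were 6.59 and 6.68 on siNTC Ang II arrays and 7.45 and 7.43 on siGiver Ang II arrays. All 4 siGiver arrays lay above all 4 siNTC arrays. The difference in PBS was 0.89 ± 0.058 (1.85-fold, adjusted p = 6.92e-05). Its dimmer probe sets stood at 0.43 ± 0.071, which passed, and 0.31 ± 0.12, which did not.

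Acat2 makes acetoacetyl-CoA, the first intermediate of the pathway. Its values were 9.94 and 9.998 in siNTC PBS, 10.53 and 10.77 in siGiver PBS, 9.97 and 9.89 in siNTC Ang II and 10.50 and 10.49 in siGiver Ang II arrays. The arms did not overlap in either treatment. The difference in PBS was 0.68 ± 0.080 (1.61-fold, adjusted p = 0.00061). Only 1 probe set measures this gene here.

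Among the enzymes of the later steps of the pathway, Nsdhl, a sterol dehydrogenase, was higher by 0.29 ± 0.044 and Fdft1 by 0.20 ± 0.050. Cyp51, the lanosterol demethylase, was lower by -0.29 ± 0.046 and Sc5d by -0.24 ± 0.056. The brightest Cyp51 probe set bears a suffix that marks sets able to match several transcripts, and its dimmer set was lower by -0.27 ± 0.049. The dimmer sets of Nsdhl, at 0.03, of Fdft1, at 0.10, and of Sc5d, at -0.13 and -0.16, did not pass. Upstream of squalene, Fdps, the farnesyl diphosphate synthase, was lower by -0.28 ± 0.044 and Pmvk by -0.17 ± 0.044, while Idi1 was higher by 0.22 ± 0.049.

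Of the sensing genes, Insig2 was lower by -0.24 ± 0.045 (its dimmer set, at -0.10, did not pass), Scap by -0.15 ± 0.048 and Srebf1 by -0.15 ± 0.044. The Scap and Srebf1 calls were lost when any 1 of the 8 arrays was left out. Without siGiver PBS replicate 1 the calls of Pmvk, Idi1, Fdft1 and Sc5d were lost too. Without siGiver PBS replicate 2 those of Pmvk and Fdft1 were lost, without siNTC PBS replicate 1 those of Idi1 and Fdft1, and without siNTC PBS replicate 2 those of Pmvk and Sc5d. Soat1 was lower by -0.41 ± 0.056 (1.33-fold, adjusted p = 0.0012). The dimmer sets of Soat1, at -0.23, Idi1, at 0.20, Srebf1, at -0.23, and Scap, at -0.23, had the same sign and did not pass. The count of called members fell without siGiver PBS replicate 1, and the count over all genes fell as well. In this comparison 6 of 8 smooth muscle markers were higher and 1 lower (median 0.40), and 0 of the 4 macrophage and 0 of the 6 fibroblast markers tested passed in limma (0 and 2 at an unadjusted p under 0.05).

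With Ang II, the arms differed in 18 of the 26 genes, 8 higher and 10 lower in siGiver cells (69.2% of them, against 44.3% of all genes, with 19.5% higher and 24.8% lower). An unadjusted p under 0.05 was found for 19 of them and for 51.8% of all genes. Stard4, Acat2, Idi1, Sqle, Msmo1, Nsdhl, Hsd17b7 and Srebf2 were higher. Pmvk, Fdps, Cyp51, Ebp, Dhcr7, Srebf1, Scap, Insig2, Npc2 and Abca1 were lower. The median over the 26 was -0.11, against -0.03 over all genes. With array medians subtracted, 8 of the 26 were higher and 8 lower, and of all genes 2360 were higher and 2493 lower.

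Stard4 was higher by 0.81 ± 0.058 (1.75-fold), Acat2 by 0.56 ± 0.080 (1.48-fold) and Idi1 by 0.44 ± 0.049 (1.35-fold). The dimmer Idi1 probe set was higher by 0.61 ± 0.069. Hsd17b7 was higher by 0.33 ± 0.063 and Nsdhl by 0.24 ± 0.044, but their dimmer sets, at 0.10 and 0.01, did not pass. Sqle was higher by 0.22 ± 0.042 and Msmo1 by 0.18 ± 0.044. Calls lost when 1 of the Ang II arrays was left out were those of Msmo1, Dhcr7, Ebp and Scap (either siNTC array), Cyp51 (siNTC replicate 2), Msmo1, Dhcr7, Scap, Cyp51 and Srebf2 (siGiver replicate 2) and Dhcr7 and Ebp (siGiver replicate 1). The Cyp51, Scap, Ebp and Dhcr7 differences were -0.21, -0.18, -0.16 and -0.16.

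Fdps condenses isoprenoid units into farnesyl diphosphate, the last shared precursor of sterols and other isoprenoids. Its log2 values were 12.47 and 12.51 in siNTC Ang II and 12.08 and 12.07 in siGiver Ang II arrays, and 12.47, 12.51, 12.19 and 12.22 in siNTC PBS and siGiver PBS arrays. Each siGiver array lay below each siNTC array. The difference with Ang II was -0.42 ± 0.044 (adjusted p = 0.00025). Pmvk was lower by -0.43 ± 0.044, with values of 8.82 and 8.79 in siNTC Ang II and 8.39 and 8.37 in siGiver Ang II arrays.

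The 2 SREBP genes differed in opposite directions. Srebf2, whose product is the main driver of cholesterol synthesis, read 8.93 and 9.01 in siNTC Ang II and 9.16 and 9.26 in siGiver Ang II arrays, higher by 0.24 ± 0.052. Srebf1 read 9.22 and 9.21 against 8.69 and 8.72, lower by -0.51 ± 0.044 (1.42-fold, adjusted p = 0.00011). The dimmer Srebf1 probe set stood at -0.21 ± 0.089 and did not pass.

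Of the 2 Insig genes, Insig2 passed and Insig1 did not, and the 2 were not tested against each other. Insig2 read 8.43 and 8.36 in siNTC Ang II and 7.99 and 7.99 in siGiver Ang II arrays, lower by -0.40 ± 0.045 (1.32-fold, adjusted p = 0.00034), and its dimmer probe set was lower by -0.34 ± 0.061. Insig1, a direct SREBP target, did not pass in any of the 5 comparisons, and with Ang II stood at -0.05 (95% interval -0.16 to 0.07). The arrays of its groups overlapped, at 11.06 and 11.14 against 11.04 and 11.06.

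Abca1 was lower by -0.45 ± 0.060 (1.37-fold, adjusted p = 0.00076), with values of 8.995 and 8.99 against 8.59 and 8.49. Of its dimmer probe sets, 1 stood at -0.07 ± 0.066 and 1 at -0.45 ± 0.18, and neither passed. Npc2, which hands cholesterol out of lysosomes, was lower by -0.22 ± 0.041. Soat1, lower in PBS, stood at -0.12 (95% interval -0.25 to 0.01) with Ang II. In this comparison 6 of 8 smooth muscle markers were higher and 1 lower (median 0.58), 4 of 6 fibroblast markers were higher, and 2 of the 4 macrophage markers tested were lower (median -0.26).

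In siGiver cells 4 genes were higher in both treatments (Stard4, Acat2, Idi1 and Nsdhl) and 6 lower in both (Pmvk, Fdps, Cyp51, Srebf1, Scap and Insig2). None was called in opposite directions. Another 8 were called with Ang II and not in PBS, and 3 in PBS and not with Ang II, which does not show that the differences themselves differ. The same overlap was not counted over all genes, so whether the cholesterol genes stand out in it was not tested. Taken singly, the siRNA comparison called 35.1% of all genes in PBS and 44.3% with Ang II. Mvd, Lss, the lanosterol synthase, and Insig1 were called in no comparison. Each siRNA comparison shares its PBS or Ang II arrays with an Ang II comparison, so these are not separate measurements.

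**Figure D3:**
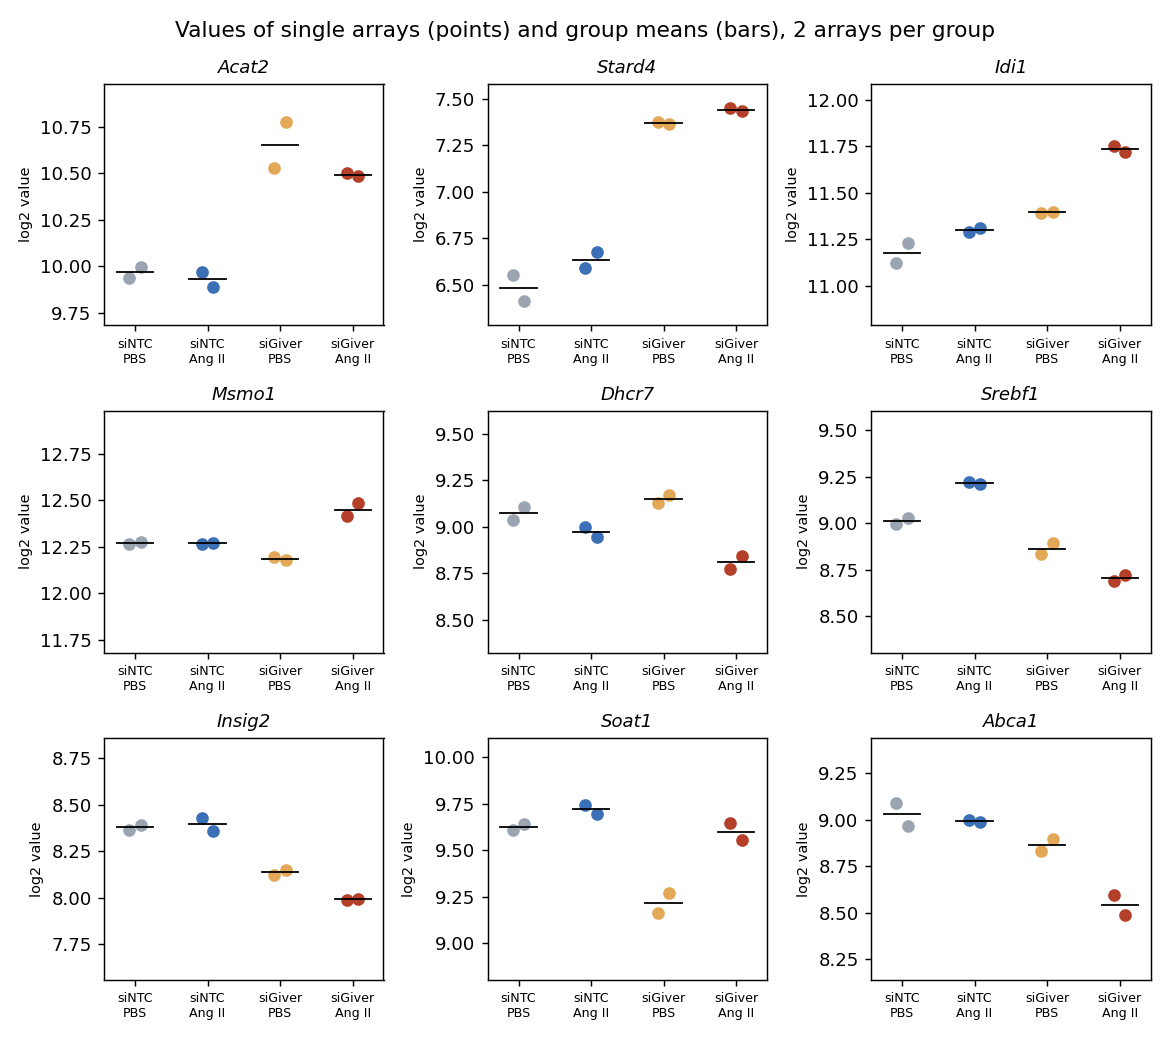
Log2 values of 9 cholesterol genes on single arrays (points) with the mean of each group of 2 arrays (bars). Every panel spans the same log2 range, so that heights compare as differences within a gene and not as levels between genes; Stard4 and Acat2 are higher on every siGiver array, and Soat1 is lowest on the siGiver PBS arrays.

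Whether the Ang II response differed between arms was tested as an interaction (siGiver response minus siNTC response). Of the 26, 1 passed, Srebf1 (6.22% of all genes passed, 3.35% above 0 and 2.87% below). Srebf1 rose by 0.20 with Ang II in siNTC cells and fell by 0.16 on the log2 scale in siGiver cells, an interaction of -0.36 ± 0.063 (95% interval -0.51 to -0.22, adjusted p = 0.0166). The call rests on the brightest probe set. On the dimmer set the effects were 0.16 and 0.18 and the interaction 0.02 ± 0.13, and with the mean of both sets it was -0.17 and did not pass, while Idi1 passed at 0.31. Leaving out 1 array kept it in 2 of 8 fits, those lacking siNTC PBS replicate 2 or siGiver PBS replicate 1.

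The next smallest p-values belonged to genes that moved in siGiver cells. The siGiver response is a part of the interaction, so this overlap is not a separate result. Msmo1 stood at 0.26 ± 0.063 (adjusted p = 0.0518), Pmvk at -0.26 ± 0.063 (0.0573), Ebp at -0.24 ± 0.067 (0.0774) and Soat1 at 0.29 ± 0.079 (0.0791). Abca1 stood at -0.29 ± 0.085 (0.0967) and Dhcr7 at -0.24 ± 0.072 (0.0999). None passed at these settings. In all, 13 of the 26 genes had an unadjusted p under 0.05, against 22.8% of all genes, and 10 of the interactions were above 0 and 16 below. For Stard4 the interaction was -0.08 (95% interval -0.27 to 0.11) and for Acat2 -0.12 (-0.38 to 0.14). With the filter at the 50th percentile 5 of the 26 passed, and with trended and robust moderation 10. The count over all genes rose too, to 1059 of 9217 and 1490 of 11372 in that order, against 707 of 11372.

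Of the 26 genes, 14 have more than 1 probe set over the filter, with 18 dimmer sets in all. Dimmer sets of genes called with the siRNA under Ang II numbered 11; all 11 had the sign of the brightest set, and 4 passed on their own. In PBS, 12 of 12 had the same sign and 2 passed. For Ang II in siGiver cells 7 of 8 had the same sign and 3 passed, and the exception was Srebf1, at 0.18 against -0.16 for the brightest. No dimmer set of a called gene passed the other way. For Nsdhl the dimmer set fell with Ang II in both arms, by -0.28 ± 0.044 and -0.29 ± 0.044, where the brightest stood at -0.10 and -0.15 and did not pass. For Fdft1 the dimmer set was higher with the siRNA under Ang II, at 0.16 ± 0.045, where the brightest stood at 0.02.

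**Figure D4:**
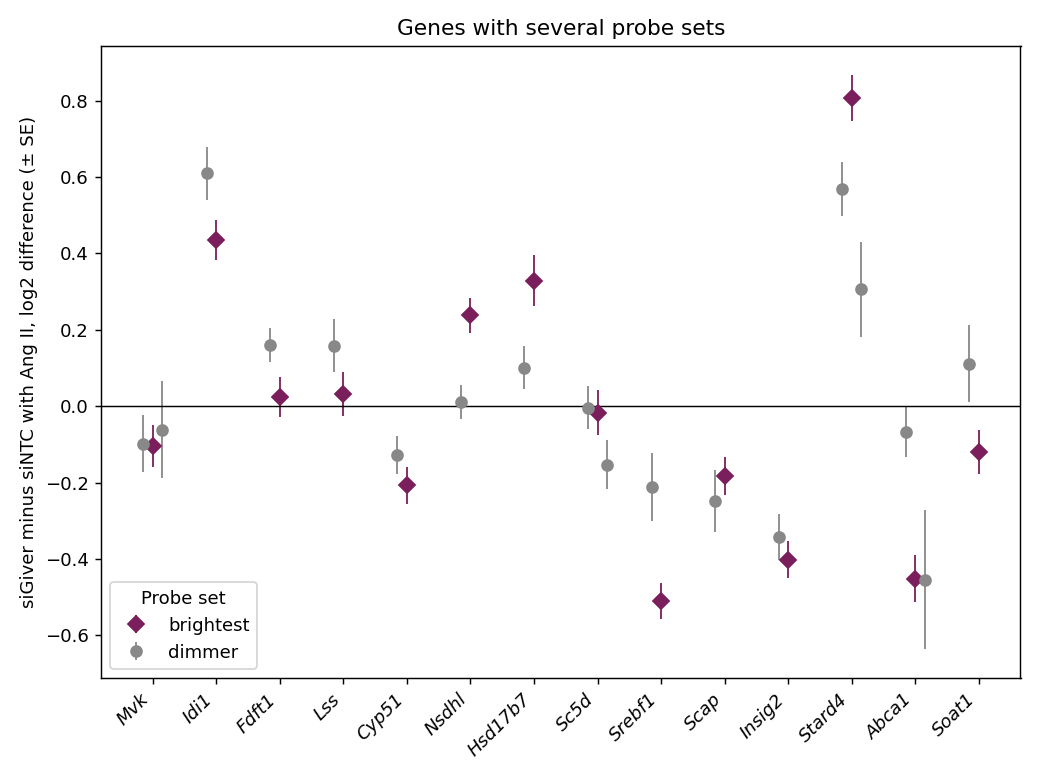
Log2 difference between siGiver and siNTC cells with Ang II (vertical axis, ± SE of the limma fit over every probe set) for the 14 cholesterol genes with several probe sets over the filter. Diamonds are the brightest set of a gene and circles the dimmer ones; the sets of Stard4, Idi1 and Insig2 lie on the same side of 0, while Soat1 has a set on each side.

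Neighbouring genes of lipid metabolism, from lists chosen like the members with earlier results known, were read the same way. Of 14 fatty acid synthesis genes tested, Mid1ip1, an activator of acetyl-CoA carboxylase, was the single one to pass with Ang II in siNTC cells, at 0.25 ± 0.046 (7.14%, against 6.14% of all genes). The other 13 stood below 0. In all, 8 of the 14 had an unadjusted p under 0.05, against 22.9% of all genes. In siGiver cells Mid1ip1 rose by 0.30, and Fads1 (-0.33), Lpin1 (-0.49) and Scd (-0.20) fell (28.6% of the list, against 16.3% of all genes). With the siRNA in PBS 1 was higher and 5 lower (42.9%, against 35.1% of all genes), and with Ang II 1 higher and 6 lower (50%, against 44.3%). Acss2, which makes acetyl-CoA from acetate, was lower by -0.69 ± 0.074 in PBS and -0.80 ± 0.074 with Ang II, and malic enzyme Me1 by -0.52 and -0.45. Fads2, a fatty acid desaturase, was higher by 0.46 with Ang II.

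The list of receptors, liver X receptors and other sterol handling genes had 17 tested members. In siNTC cells Ang II raised Cyp27a1, a mitochondrial sterol hydroxylase, by 0.73 ± 0.046 (1.66-fold), the sterol carrier Stard5 by 0.37 ± 0.048 and Nr1h2, the liver X receptor beta, by 0.22 ± 0.050 (Nr1h2 is named beyond the rule because its interaction also passed). It lowered the lipoprotein receptors Lrp1 (-0.30) and Vldlr (-0.30), so that 29.4% of the list passed, against 6.14% of all genes. In siGiver cells Cyp27a1 fell by -0.28 ± 0.046 and Nceh1, a cholesterol ester hydrolase, by -0.20 (11.8%, against 16.3%). The Cyp27a1 values were 8.34 and 8.39 in siNTC PBS, 9.12 and 9.08 in siNTC Ang II, 8.32 and 8.37 in siGiver PBS and 8.08 and 8.06 in siGiver Ang II arrays. The siNTC Ang II arrays stood alone above the rest.

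In the same list 2 genes were higher and 3 lower in siGiver cells in PBS (29.4%, against 35.1% of all genes), and 3 higher and 7 lower with Ang II (58.8%, against 44.3%). Vldlr was higher by 0.60 and 0.73 and Nceh1 lower by -0.48 and -0.63. Abcg1, a cholesterol exporter, was lower by -0.53 ± 0.060 and -0.64 ± 0.060. With Ang II Cyp27a1 was lower by -1.03 ± 0.046 (2.05-fold).

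Of 11 genes of the non-sterol isoprenoid branch, Fnta, a prenyltransferase subunit, was lower in siGiver cells by -0.51 ± 0.046 in PBS and -0.49 with Ang II, and Fntb, its farnesyltransferase partner, was higher by 0.21 with Ang II (9.09% and 18.2% of the list, against 35.1% and 44.3% of all genes). Of 8 genes of SREBP processing and degradation, Mbtps2, the protease of the second SREBP cut, fell with Ang II in both arms, by -0.22 ± 0.047 and -0.27 ± 0.047. It was higher in siGiver cells by 0.31 in PBS and 0.26 with Ang II. Erlin2, a membrane protein of the degradation machinery of the endoplasmic reticulum, was higher by 0.48 ± 0.054 and 0.28. In siGiver cells 2 of these 8 genes were higher in PBS (25%, against 35.1%), and 2 higher and 2 lower with Ang II (50%, against 44.3%), the latter being Ufd1 (-0.22) and Vcp (-0.15) of the extraction complex for ubiquitinated membrane proteins.

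The medians for the siRNA comparison with Ang II were -0.06 for fatty acid synthesis, 0.03 for the isoprenoid branch, -0.03 for SREBP processing and -0.14 for sterol handling, against -0.03 over all genes. For Ang II in siNTC cells they were -0.12, -0.0032, 0.05 and 0.02 in that order, against 0.0059. Within the cholesterol genes, the siRNA comparison with Ang II gave 2 higher and 2 lower of 6 early enzymes, 4 and 3 of 11 late enzymes, 1 and 3 of 5 sensing genes and 1 and 2 of 4 transport genes. Genes of each role thus stood on both sides, as did all genes tested, with 19.5% higher and 24.8% lower. Whether any role stands out from all genes was not tested.

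**Figure D5:**
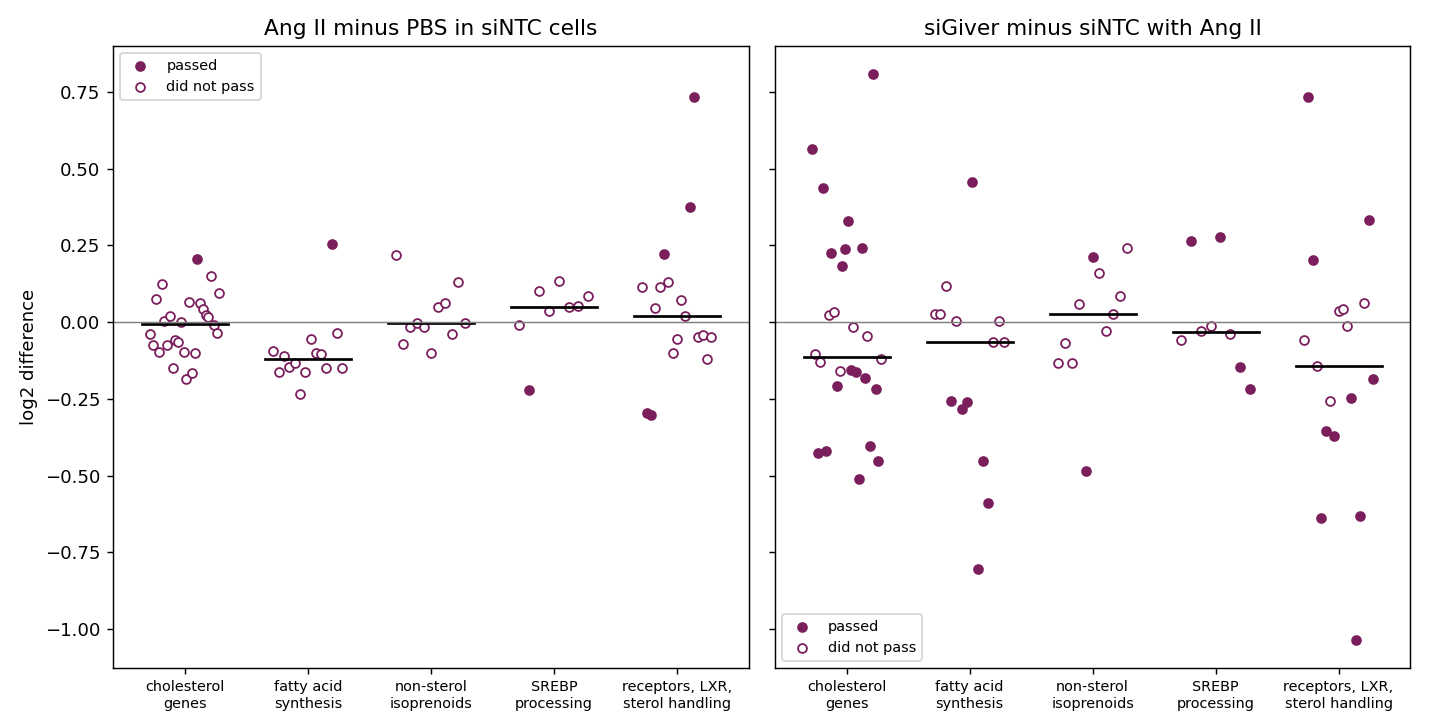
Log2 differences of single genes (points, filled where the test was passed) in the 26 cholesterol genes and 4 neighbouring lists, with the median of each list (black bar). The left panel shows Ang II minus PBS in siNTC cells and the right panel siGiver minus siNTC with Ang II; cholesterol genes lie on both sides of 0 in each.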

How the data were processed

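Per the submitters' processing notes, the authors used RMA and Partek, with versions not given in the sources used here. What they deposited is log2 signal for 31099 probe sets (2.06 to 14.6). RMA corrects background, quantile-normalizes arrays and summarises the probes of a set. Per the labels' protocols, 5 ug RNA were labelled with the One-Cycle protocol. Arrays have no read depth, and their number limits the precision.

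Samples were grouped by their titles. GEO's platform annotation gave 1 symbol to 20832 probe sets, several to 436 and left 9780 unlisted; 57 are controls. Of the 20832, 20764 matched a gene identifier in RefSeq's rat table, which set the symbol used. Probe sets with a mean under the 30th percentile (4.81) were left out, and the brightest set per symbol was kept. All 8 arrays and 11372 genes entered a single group-means fit in limma 3.58.1 in R 4.3.3 (4 residual and 3.53 prior degrees of freedom), with 5 contrasts. Benjamini-Hochberg adjusted p under 0.05 over all genes of a contrast counted as passed. The members, lists, contrasts and alternatives were chosen with earlier results of these data known. All members passing a contrast may be named, and up to 4 genes with the smallest p per neighbouring list and contrast. The code was tested on simulated data.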

Additional observations from a re-analysis of the deposited data

Results flagged for a closer look

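Of all genes tested, 6.22% passed the interaction test at an adjusted p under 0.05. Among the genes of the lists used here, 7 passed it, with an Ang II effect that differed between siGiver and siNTC cells. Srebf1 is the member among them (1 of 26, 3.85%), with an interaction of -0.36 log2. Of the 17 sterol handling genes tested 3 passed (17.6%), Cyp27a1 at -1.01, Stard5 at -0.31 and Nr1h2 at -0.31. Of the markers, Cd14, a monocyte receptor, stood at -0.40 (1 of 4 macrophage genes tested). The fibroblast genes Dcn and Col14a1 stood at 0.39 and 0.47 (2 of 6). None passed among the 14 fatty acid synthesis, 11 isoprenoid, 8 SREBP processing and 8 smooth muscle genes tested. Groups of 2 arrays are too small for a test of single outlying arrays.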

How the results depend on the processing

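Of 44 calls of single cholesterol genes, 22 kept their direction and passed under every alternative run, and 22 were lost in at least 1 fit that left out an array; 33 were kept under all other alternatives. The 1 turned direction was Srebf1 for Ang II in siGiver cells, at 0.0085 with the mean of probe sets. Calls were gained as well as lost, since some results not called in the main fit were called in an alternative. With trended and robust moderation, called members numbered 18 for the siRNA in PBS, against 13, and 20 with Ang II, against 18. All called genes rose too, to 4634 in PBS, against 3986, and 5530 with Ang II, against 5036. For Ang II in siNTC cells, the 1 called member became 0 with no filter, with every probe set, with the groups compared only and with the replicate block, 3 with trended and robust moderation, and 0 without any 1 array (0 to 0); with the mean of probe sets it was 1, but Nsdhl (-0.19) in place of Srebf1. All called genes numbered 420 with no filter, 1072 with the filter at the 50th percentile, 1496 with trended and robust moderation, 422 with the groups compared only, and 227 to 526 without 1 array, against 698. For Ang II in siGiver cells, called members numbered 17 and all called genes 2802 with trended and robust moderation, 7 and 1215 with the groups compared only, and 4 to 9 and 866 to 1741 without 1 array, against 11 and 1855. For the siRNA in PBS the ranges without 1 array were 7 to 11 members and 2770 to 3781 genes, against 13 and 3986, and with Ang II 13 to 19 and 3953 to 5028, against 18 and 5036. For the interaction, called members numbered 5 with the filter at the 50th percentile, 2 with cyclic loess, 10 with trended and robust moderation and 0 to 1 without 1 array, against 1, and with the mean of probe sets 1, Idi1 (0.31) in place of Srebf1. All called genes numbered 467 with no filter, 1490 with trended and robust moderation and 356 to 436 without 1 array, against 707. With the filter at the 50th percentile all called genes for the interaction numbered 1059 of 9217, and with cyclic loess 777. Why these counts moved was not tested. Same-numbered arrays did not deviate together (replicate differences correlated between groups at -0.0916 to 0.0658), and the replicate block moved no other count by over 1.5 times. Where an array was left out, the lone array of its group was assumed to vary like the other groups.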
